A study of Mus musculus with 10 samples.

Results

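Metallothioneins are small cysteine-rich proteins that hold zinc and copper ions in the cytosol. *Mt1* and *Mt2* encode the 2 forms made in liver, and their mRNA is among the most readily induced in hepatocytes. Zinc entering the cell is sensed by the zinc-finger transcription factor that *Mtf1* encodes, which binds metal response elements in the promoters of the metallothionein genes and of *Slc30a1*. *Slc30a1* encodes the zinc exporter ZnT1 of the plasma membrane, *Slc30a10* a manganese exporter, and *Slc39a14* the importer ZIP14, which brings zinc, manganese and iron into hepatocytes. Glucocorticoids and interleukin 6 are also known inducers of metallothionein mRNA in liver.

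These 6 genes were read from the liver RNA-seq of *db/db* mice, among the 15126 genes in the deposited table. *Mt1* and *Mt2* were chosen by their levels in these data, so what is given of them is a description, without a test. The other 4 genes were listed with them for their roles in metal handling. All 6 had a mean of at least 1 CPM, as had 11041 genes in all. CPM is a gene's read count scaled to the read total of its library.

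The samples described were the 5 of the AAV8-Control group, *db/db* mice, 10 weeks old, which lack a working leptin receptor and had received adeno-associated virus 8 encoding eGFP 5 weeks before. The promoter of this vector is not given in the sources used here, and no group without a virus and no lean group was analysed here, so the levels are those of diabetic mice that carry a vector. Liver is the labelled tissue, but the labelled cell type is primary hepatocytes, with a culture protocol. The study's results describe this sequencing as done on livers, and the samples are taken here as liver tissue, which the labels alone do not settle.

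Library totals were 19499795 to 35498596 reads, so 1 read was worth 0.0282 to 0.0513 CPM. Of 10 hepatocyte markers, 9 were listed under the symbols searched, and they summed to 98771 to 133876 CPM. *Tf* was not found under that symbol, so it is not in the sum. Markers of other cell types were present at far lower levels. Kupffer cell and macrophage markers summed to 174 to 357 CPM, sinusoidal endothelial markers to 138 to 278 CPM, stellate cell and matrix markers to 250.01 to 346 CPM, and cholangiocyte markers to 33.5 to 54.0 CPM. Lymphocyte markers stayed between 1.44 and 4.09 CPM, neutrophil markers between 1.21 and 2.76 CPM, and the single listed pancreatic acinar marker between 3.39 and 4.87 CPM.

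The promoters of the metallothionein genes are shown because metal response elements (MREs) in them are what MTF-1 binds, and those of *Slc30a1* and *Slc30a10* because they are the metal exporters of the group. Each sequence is the 250 bases before the gene's start in RefSeq, on the GRCm38.p6 build and the gene's own strand, with matches to the MRE core in capitals. RefSeq windows were found for 5 of the 6 genes, with *Slc39a14* the exception.
Mt1 (chr8:94178839-94179088, forward strand): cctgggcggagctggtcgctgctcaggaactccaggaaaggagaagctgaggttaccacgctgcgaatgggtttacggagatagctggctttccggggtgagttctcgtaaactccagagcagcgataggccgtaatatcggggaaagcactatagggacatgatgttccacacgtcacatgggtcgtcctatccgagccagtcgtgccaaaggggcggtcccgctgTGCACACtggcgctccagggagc
Mt2 (chr8:94172368-94172617, forward strand): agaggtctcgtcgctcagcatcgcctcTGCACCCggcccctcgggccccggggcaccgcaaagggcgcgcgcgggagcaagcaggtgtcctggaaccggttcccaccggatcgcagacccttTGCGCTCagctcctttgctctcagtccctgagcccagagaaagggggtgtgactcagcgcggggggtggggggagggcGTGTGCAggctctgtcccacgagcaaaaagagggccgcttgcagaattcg
Slc30a1 (chr1:191906531-191906780, forward strand): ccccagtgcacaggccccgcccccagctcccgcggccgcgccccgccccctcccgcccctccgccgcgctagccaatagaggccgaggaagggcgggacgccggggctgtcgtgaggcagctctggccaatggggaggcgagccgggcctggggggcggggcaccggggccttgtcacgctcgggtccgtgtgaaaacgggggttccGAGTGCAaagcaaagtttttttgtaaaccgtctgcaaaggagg
Slc30a10 (chr1:185454598-185454847, forward strand): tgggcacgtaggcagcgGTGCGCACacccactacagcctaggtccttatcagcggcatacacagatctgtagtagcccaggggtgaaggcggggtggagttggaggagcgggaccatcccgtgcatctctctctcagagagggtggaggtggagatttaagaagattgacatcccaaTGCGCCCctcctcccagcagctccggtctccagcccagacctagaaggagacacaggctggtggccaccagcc

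The MRE core was searched as TGCACNC or TGCGCNC, on both strands, in the 300 bases from 250 before to 50 after each start. *Mt2* had 4 matches and *Mt1* had 3. Of those of *Mt1*, TGCACAC lay 23 to 17 bases before the start, TGCACTC lay at bases 3 to 9 after it and TGCGCTC at bases 21 to 27 after it, the last 2 beyond the printed stretch. In *Mt2*, TGCACCC lay 223 to 217 bases and TGCGCTC 128 to 122 bases before the start, and 2 matches were on the reverse strand, one 50 to 44 bases before the start and one at bases 5 to 11 after it. *Slc30a1* had 2 matches. *Slc30a10* had 3, of which 2 overlap each other on opposite strands, and *Mtf1* had none in its window. At least 1 match was present in 25.7% of all 32851 promoter windows, at least 2 in 7.11%, at least 3 in 1.97% and at least 4 in 0.517%. The antioxidant response core TGACNNNGC, which NRF2 binds, matched once in *Mt2*, as TGACTCAGC 79 to 71 bases before the start, and once in *Slc30a1*, with 12.4% of all windows holding a match. These positions count from the RefSeq start, which is not the start in the GENCODE M21 annotation for 4 of the 5 genes. The annotated start lies 46 bases after the RefSeq start for *Mt2*, so that all 4 matches of *Mt2* lie before it, 7 bases before the RefSeq start for *Mt1*, 14 before for *Slc30a1* and 445 before for *Mtf1*, and both fall on the same base for *Slc30a10*. The annotation also holds transcripts of *Mt1* and *Mt2* that start downstream of the windows searched, so the match counts apply to the RefSeq start alone. A match is only a match of letters, and binding was not measured here.

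*Mt1*, listed as ENSMUSG00000031765, spans bases 94179082 to 94180327 of chromosome 8 in GRCm38, forward strand. It was at 598, 451, 476, 363 and 393 CPM in AAV8-Control replicates 1 to 5. Replicate 1 was the highest and replicate 4 the lowest, 1.65 times apart. The mean was 456 ± 91.4 CPM (SD, n = 5), from 8129 to 16895 reads per library, which placed *Mt1* at rank 270 of the 15126 genes by CPM. In bulk samples such as these, RNA per cell and the share of cells of a type cannot be told apart.

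*Mt2*, listed as ENSMUSG00000031762, lies 5513 bases upstream of *Mt1* on the same strand, from 94172664 to 94173568. It was at 456, 367, 386, 196 and 270.3 CPM in AAV8-Control replicates 1 to 5. The libraries fell in the same order as for *Mt1*, with replicate 1 the highest, then 3, 2 and 5, and replicate 4 the lowest. Its range was wider, 2.33 times from lowest to highest, around a mean of 335 ± 102 CPM (SD, n = 5) and from 5378 to 13693 reads per library. No correlation is given over 5 libraries. The summed sinusoidal endothelial markers fell in this order too, at 278, 197, 235, 138 and 191 CPM in replicates 1 to 5, and the summed Kupffer cell and macrophage markers, at 273, 357, 320 and 212 CPM in replicates 1 to 4 and 174 CPM in replicate 5, were also lowest in replicates 5 and 4. The summed hepatocyte markers, most of which was *Alb*, were lowest in replicate 1 and highest in replicate 4, at 98771 and 133876 CPM. *Alb*, *Ttr*, *Serpina1a*, *Serpina1c*, *Cps1* and *Ahsg* were each highest in replicate 4. *Hnf4a* was highest in replicate 1, *Apoa1* in replicate 3, and *Apoc3* in replicate 1 or, with TMM factors or DESeq2 size factors, replicate 4. The part of other cell types in the levels of *Mt1* and *Mt2* was not tested.

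Both genes together made up 559 to 1054 CPM, which is 0.0559% to 0.105% of the reads counted on genes. The ratio of *Mt1* to *Mt2* was 1.42 ± 0.259 (SD, n = 5). It was 1.31, 1.23, 1.23, 1.85 and 1.45 in replicates 1 to 5, and highest in the library with the lowest level of both genes. *Mt3*, a form known from brain, averaged 0.0153 CPM, below what 1 read was worth in any library, and *Mt4* was not listed under that symbol.

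**Figure D1:**
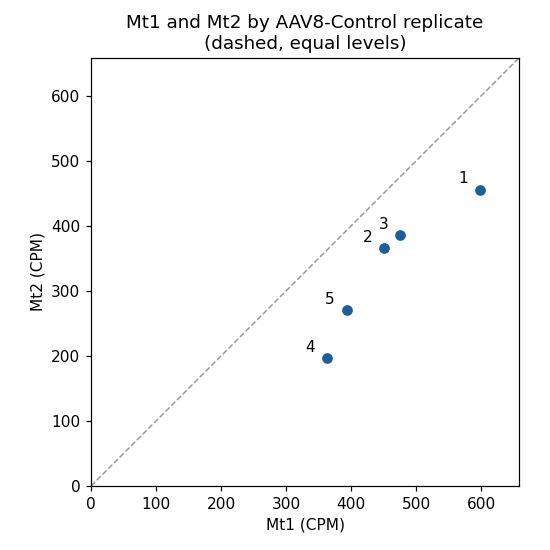
Level of *Mt1* (horizontal) and *Mt2* (vertical) in CPM, with a point for each of the 5 AAV8-Control libraries labelled by its replicate number and a dashed line of equal levels. All points lie below the line, from replicate 4 at 363 and 196 CPM to replicate 1 at 598 and 456 CPM.

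The metallothionein genes varied between libraries, *Mt2* the most. The coefficient of variation, the SD as a percentage of the mean, was 20.04% for *Mt1* and 30.5% for *Mt2*, beside a median of 10.6% over the 11041 genes that averaged 1 CPM or more. Among genes whose mean lay within 2-fold of its own, *Mt1* had a higher coefficient than 90.7% and *Mt2* than 96.7%. *Slc30a1*, at 15.0%, was above 87.8% of such genes, *Mtf1*, at 13.8%, above 80.3%, *Slc39a14*, at 9.34%, above 62.3% and *Slc30a10*, at 8.68%, above 57.4%. Single libraries weighed on these values. Without replicate 1 the coefficient of *Mt1* was 12.4%, above 74.5% of genes of similar level, and without replicate 5 that of *Mtf1* was 7.47%, above 36.0%. That of *Mt2* stayed between 20.7%, without replicate 4, and 35.5%, and above at least 94.8% of such genes with any 1 library left out.

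The count of *Mt2* depends on how an overlapping transcript was treated. In the GENCODE M21 annotation, 45.9% of the 50-base stretches of *Mt2* transcripts are shared with *Gm45774*, an RNA on the opposite strand, and the library protocol names no step that marks strand. Whether *Gm45774* was in the annotation that was counted on, and the strand setting of the counting, are not given in the sources used here. Reads of *Gm45774* could be counted as *Mt2* where it was left out, and reads in the shared stretch could be dropped as ambiguous where it was included, so the level of *Mt2* and its ratio to *Mt1* could be off in either direction. No 50-base stretch of *Mt1* was shared with another transcript, and *Mt1* and *Mt2* shared none with each other. The shares were 7.55% for *Mtf1*, 8.01% for *Slc30a1*, 8.36% for *Slc30a10* and 0.196% for *Slc39a14*.

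*Mtf1* (ENSMUSG00000028890, chromosome 4, 124802104 to 124849800, forward strand), for the zinc-sensing factor itself, was at 18.5, 17.8, 17.3, 20.4 and 23.9 CPM in AAV8-Control replicates 1 to 5. Its highest libraries were replicates 5 and 4, those with the lowest *Mt1* and *Mt2*. The mean was 19.6 ± 2.69 CPM (SD, n = 5).

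The exporter gene *Slc30a1* (ENSMUSG00000037434, chromosome 1, 191906767 to 191913247, forward strand) was at 35.8, 30.7, 34.0, 27.7 and 24.6 CPM in AAV8-Control replicates 1 to 5. As for the metallothionein genes, replicates 1, 2 and 3 were the higher libraries and replicates 4 and 5 the lower, though with TMM factors or DESeq2 size factors replicate 3 and not replicate 1 was the highest. The mean was 30.5 ± 4.57 CPM (SD, n = 5). *Slc30a10* (ENSMUSG00000026614, chromosome 1, 185454848 to 185468762, forward strand), for the manganese exporter, was at 66.8, 56.7, 62.8, 57.3 and 68.7 CPM in the same libraries, with a mean of 62.5 ± 5.42 CPM (SD, n = 5). Its libraries ran differently, since replicate 5 was the highest and replicate 2 the lowest.

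The importer gene *Slc39a14* (ENSMUSG00000022094, chromosome 14, 70303469 to 70351425, reverse strand) was at 165, 138, 140, 151 and 130 CPM in AAV8-Control replicates 1 to 5. Replicates 1 and 4 were the highest, and which of them led depended on the scaling, since with TMM factors they were at 156 CPM each with replicate 4 slightly ahead. The mean was 145 ± 13.5 CPM (SD, n = 5), the highest of the 4 genes in CPM.

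**Figure D2:**
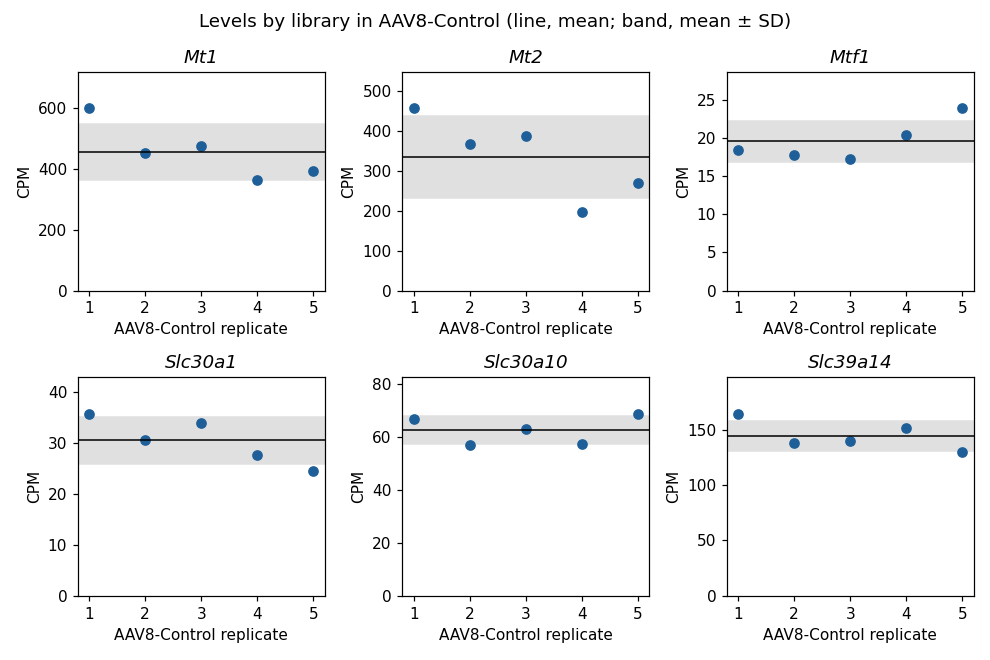
Levels of the 6 genes in CPM (vertical, from 0) in AAV8-Control replicates 1 to 5 (horizontal), with a point for each library, a line for the mean and a grey band for the mean ± SD of 5 libraries. The bands are widest relative to the mean for *Mt1* (456 ± 91.4 CPM) and *Mt2* (335 ± 102 CPM), and narrowest for *Slc30a10* (62.5 ± 5.42 CPM).

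Per kb of transcript, a scale on which genes can be compared, the 6 genes spanned a wide range. *Mt1* was at 831 ± 166 CPM per kb and *Mt2* at 655 ± 200 CPM per kb (SD, n = 5), ranks 71 and 91 of 11035 genes with a length and a mean of at least 1 CPM, and their library values overlapped. Their order depended on the length used, since over all annotated exons they were at 366 and 570 CPM per kb. *Slc39a14* followed at 29.4 ± 2.74 CPM per kb, *Slc30a10* at 10.7 ± 0.929 CPM per kb, *Slc30a1* at 5.83 ± 0.872 CPM per kb and *Mtf1* at 2.56 ± 0.353 CPM per kb (SD, n = 5 for each). The library values of these 4 did not overlap between neighbours in that order. Over all annotated exons the mean of *Slc39a14* was 13.7 CPM per kb, still above *Slc30a10* at 10.7 CPM per kb. The median over all 11035 genes was 5.01 CPM per kb, so *Mtf1* lay below it and *Slc30a1* close to it.

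The wider zinc transporter families were present at modest levels. SLC30 (ZnT) proteins move zinc out of the cytosol and SLC39 (ZIP) proteins move it in. Of 10 SLC30 genes, 9 were listed and 7 had a mean of at least 1 CPM, with a median of 6.56 CPM per kb. *Slc30a10* was the highest of them, with *Slc30a9*, at 10.4 ± 0.645 CPM per kb (SD, n = 5), inside its spread. *Slc30a5*, for a zinc transporter of the secretory pathway, was at 9.10 ± 0.556 CPM per kb (SD, n = 5), and *Slc30a4*, for a vesicular zinc transporter, was the lowest of the 7 at 2.31 ± 0.222 CPM per kb (SD, n = 5). *Slc30a8*, the transporter of insulin granules in pancreatic beta cells, averaged 0.464 CPM.

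All 14 SLC39 genes were listed and 12 had a mean of at least 1 CPM, with a median of 7.42 CPM per kb. *Slc39a14* was the highest, followed by *Slc39a4*, which encodes ZIP4, known as the zinc importer of the intestine, at 23.7 ± 2.43 CPM per kb (SD, n = 5). This rank holds per kb of transcript only, since *Slc39a14* was at 13.7 CPM per kb over all annotated exons. *Slc39a4* was at 71.8, 65.3, 70.3, 54.8 and 64.3 CPM in AAV8-Control replicates 1 to 5. *Slc39a1*, for a zinc importer of the plasma membrane, came next at 19.1 ± 1.55 CPM per kb, and *Slc39a8*, for ZIP8, the closest relative of ZIP14, was at 10.2 ± 0.514 CPM per kb (SD, n = 5 in each case). The lowest of the 12 was *Slc39a10*, at 0.587 ± 0.116 CPM per kb (SD, n = 5).

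**Figure D3:**
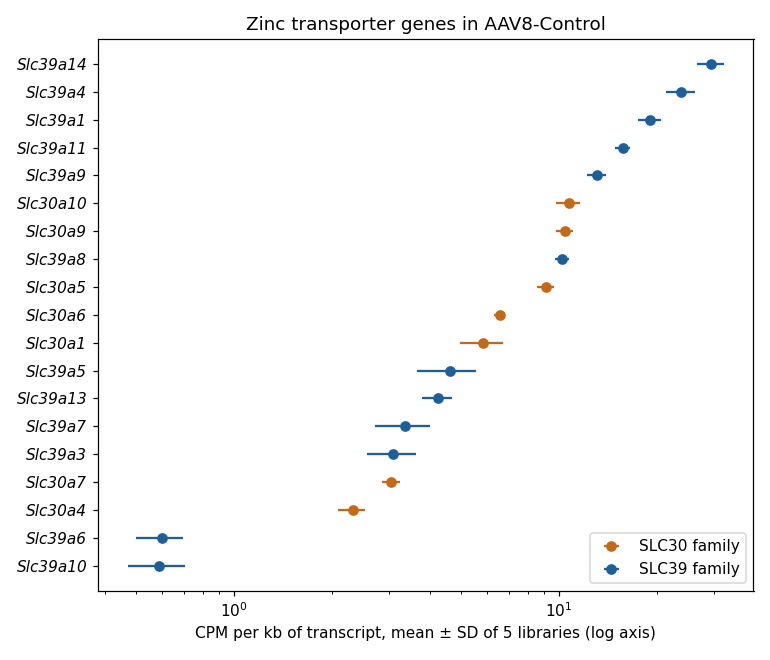
CPM per kb of transcript (horizontal, log axis) of the 7 SLC30 genes in orange and 12 SLC39 genes in blue that averaged 1 CPM or more, as the mean with bars for the SD of 5 AAV8-Control libraries. Levels run from 0.587 CPM per kb for *Slc39a10* to 29.4 CPM per kb for *Slc39a14*, and *Slc30a10* is the highest orange point at 10.7 CPM per kb.

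Other genes that MTF-1 is known to regulate were at levels from far above to below the median gene. The list held 7 listed genes, which include *Slc30a1* and *Slc30a10*, and summed to 617 to 696 CPM. *Selenow*, for a small selenoprotein, was the highest at 148 ± 14.1 CPM per kb (SD, n = 5). *Gclc*, for the catalytic subunit of the enzyme that makes the first product of glutathione synthesis, was at 385, 402, 418, 393 and 451 CPM in AAV8-Control replicates 1 to 5, a mean of 120 ± 7.63 CPM per kb (SD, n = 5). *Csrp1*, for a LIM domain protein, was at 12.6, 14.1, 12.2, 9.29 and 9.81 CPM in the same libraries. The genes of the list did not share 1 order of the libraries, since replicate 5 was the highest in *Gclc* and *Slc30a10* and the lowest in *Slc30a1*. A list of 6 regulator genes held *Mtf1*, *Keap1*, *Nfe2l2*, *Usf1*, *Usf2* and *Sp1*. Of these, *Mtf1* was the lowest per kb, and *Nfe2l2*, which encodes NRF2, the highest at 48.0 ± 5.78 CPM per kb (SD, n = 5).

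Known inducers of metallothionein mRNA have target genes of their own. The 10 glucocorticoid-induced genes had a median coefficient of variation of 21.9%, beside 10.6% over all genes and 28.0% to 29.3% for the endothelial, stellate and Kupffer cell marker lists. *Tat*, for the tyrosine-degrading aminotransferase of hepatocytes, was the highest of the list and was at 1220, 1216, 1277, 1727 and 1814 CPM in AAV8-Control replicates 1 to 5. Replicates 5 and 4 were its highest libraries. The genes of the list did not share an order. *Tsc22d3* and *Zbtb16*, for transcriptional regulators, were highest in replicate 4 and lowest in replicate 1. *Sgk1*, for a kinase, at 17.3, 13.1, 20.3, 8.49 and 8.70 CPM in replicates 1 to 5, was highest in replicates 1 and 3. So was *Per1*, of the circadian clock, at 47.4, 23.1, 43.5, 21.7 and 24.2 CPM. On library totals *Fkbp5*, *Dusp1* and *Mfsd2a* were also highest in replicates 3 and 1, *Cdkn1a* in replicate 5 and *Nfkbia* in replicate 2. The 20 acute-phase and interleukin 6 response genes had a median coefficient of 13.1%. They summed to 14361 CPM in replicate 1, the lowest, and 17587 CPM in replicate 4, the highest. *Saa2*, a serum amyloid A gene of that response, ranged from 12.3 CPM in replicate 1 to 41.8 CPM in replicate 4. Here too the genes did not share an order, since *Il6st* and *Cebpd* were highest in replicate 1 and lowest in replicate 4. *Hpx*, the heme-binding hemopexin, was the highest of this list at 1923 ± 179 CPM per kb (SD, n = 5). Whether either response has a part in the spread of *Mt1* and *Mt2* was not tested.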

How the data were processed

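RNA-seq of the 5 AAV8-Control samples was analysed, with the group and replicate numbers from the labels. An item of the study, and with it every comparison between its groups, is not reported here. Per the labels and the study's methods, poly-A selected RNA was read as single 50-base reads, aligned by the authors with STAR 2.0.4b to Ensembl release 76 (GRCm38.p2), and uniquely aligned unambiguous reads were counted on genes with Subread featureCounts 1.4.5. The authors deposited CPM per gene. How CPM were computed and rows chosen is not given in the sources used here. The listed genes summed to 97.8% to 98.3% of the scale, from which a scaling to all reads counted on genes was inferred. Reads were recovered from the CPM steps, and 100% of values under 5000 reads were whole within 0.01 reads. Of 15236 lines, 110 were identical repeats, which left 15126 genes. All pairs of libraries differed by more than sampling noise (lowest chi-square per degree of freedom 15.9).

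Means and SDs were taken over the 5 libraries on the CPM scale, and no test was made. The labels do not say whether the samples came from separate animals. A minimum of 1 CPM on the mean set which genes entered medians, coefficients of variation and ranks per kb, whereas the rank by CPM was over all listed genes. Transcript lengths came from principal transcripts of GENCODE M21, and RefSeq promoter windows were on GRCm38.p6. The genes and lists were chosen with earlier results of these data known. Named were the 6 genes and the gene with the highest CPM per kb of each list other than the cell type marker lists, and the other list genes were named after their values were seen. Alternatives, also chosen after seeing the data, were TMM factors (edgeR 4.0.16) and DESeq2 1.42.0 size factors on the recovered reads in R 4.3.3, and each library left out in turn. The scaling was tested on simulated data.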

Additional observations from a re-analysis of the deposited data

How the results depend on the processing

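The largest move of a mean level of the 6 genes, or of the ratio of *Mt1* to *Mt2*, was 10.4% over the 7 alternatives. The ratio cannot change with the library scaling. With TMM factors or DESeq2 size factors the mean was 454 CPM for *Mt1* and 333 CPM for *Mt2*. With each library left out in turn, the mean ran from 421 to 479 CPM for *Mt1*, from 305 to 370 CPM for *Mt2*, from 18.5 to 20.1 CPM for *Mtf1*, from 29.2 to 32.0 CPM for *Slc30a1*, from 60.9 to 63.9 CPM for *Slc30a10* and from 140 to 148 CPM for *Slc39a14*. The ratio ran from 1.31, without replicate 4, to 1.46. The order of *Mt1* and *Mt2* per kb reversed with the length of all annotated exons. On that length *Slc39a14* was at 13.7 CPM per kb in place of 29.4 CPM per kb. The order of the libraries was the same under all 3 scalings for *Mt1*, *Mt2* and *Slc30a10*, but not for *Mtf1*, *Slc30a1* and *Slc39a14*. Depth did not limit these genes, since the lowest count was 360 reads, for *Mtf1*. No paired analysis was possible because a single group is reported here.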

Other observations

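Genes for other metals were also present in the AAV8-Control samples. Of 7 genes for manganese handling, *Sod2*, the manganese superoxide dismutase of mitochondria, was the highest at 44.2 ± 1.83 CPM per kb (SD, n = 5), above *Slc39a14*. The 7 summed to 592 to 626 CPM, and their median coefficient of variation was 6.53%, below the 10.6% of all genes. Of 13 copper genes, 12 were listed. *Cp*, the plasma copper protein ceruloplasmin, was the highest at 233 ± 29.9 CPM per kb, followed by *Atox1*, a copper chaperone, at 181 ± 19.4 CPM per kb and *Ccs*, the copper chaperone of superoxide dismutase, at 88.3 ± 5.40 CPM per kb (SD, n = 5 in each case). The copper importer gene *Slc31a1* was at 58.7 ± 4.36 CPM per kb (SD, n = 5), and *Atp7b*, for the copper pump of hepatocytes, at 5.92 ± 1.01 CPM per kb (SD, n = 5).

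Among genes for plasma proteins that bind zinc, *Alb* was at 97164 ± 12997 CPM and *Hrg*, for histidine-rich glycoprotein, at 1293 ± 160 CPM (SD, n = 5 in each case).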
